A study of Mus musculus with 8 samples.

Results

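The genes described here are the mouse histone genes of a table of 18605 genes. A gene was counted as a histone gene by its symbol alone, when it began with the older or newer family names of the histones (Hist1h to Hist4h, H2af, H3f3, H1f, H2ac, H2bc, H3c or H4c), and 80 genes did. RNA was sequenced from C3H10T1/2 cells, a line of mesenchymal cells established from a C3H mouse embryo, in 4 groups of 2 libraries each. Cells infected with lentivirus carrying a non-target control were taken on day 0 (NC) and on day 7 of osteogenic induction (NC-7d), and cells infected with an shRNA against *Nap1l2* were taken at the same times (KD-Nap1l2 and KD-Nap1l2-7d). All groups thus came from 1 cell line that carries a viral construct, and the sources do not say whether the 2 libraries of a group came from separate infections or cultures, so p-values measure only the spread between these libraries, which may be technical.

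Histones are the proteins that DNA is wound around. H2A, H2B, H3 and H4 build the nucleosome core, and H1 binds the DNA between nucleosomes. Most histone genes are replication-dependent: they stand in clusters, lack introns and are transcribed in S phase, when new DNA has to be packaged. Their mRNAs end in a conserved stem-loop, bound by the stem-loop-binding protein SLBP, instead of a poly(A) tail. A smaller number of replacement histone genes lie alone, are spliced and polyadenylated in most cases, and are used outside S phase. They include *H3f3a* and *H3f3b* (both for the replacement H3), *H2afz* and *H2afv* (both for H2A.Z), *H2afx* (H2A.X, which is phosphorylated next to DNA breaks), *H2afy* and *H2afy2* (the macroH2A proteins) and the linker genes *H1f0* and *H1fx*. NAP1L2, the target of the shRNA, belongs to the nucleosome assembly proteins, which carry H2A and H2B.

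By role, the 80 genes were 64 replication-dependent genes (5 for H1, 17 for H2A, 17 for H2B, 12 for H3 and 13 for H4), 11 replacement genes and 5 genes known from testis or oocyte. In RefSeq (GRCm38.p6), 51 of the replication-dependent genes lie on chromosome 13 between 21715711 and 23764412, 10 on chromosome 3 between 96219885 and 96270192, 2 on chromosome 11 and 1 on chromosome 6. Of the 80 genes, 60 had enough counts to be tested. These were 49 replication-dependent genes, 10 replacement genes (all but *H3f3c*) and *Hist1h2ba*, and the remaining 20 are described by their levels alone.

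The stem-loop is shown because it marks the mRNA ends that a library may or may not keep. A 16-base match to the histone stem-loop consensus was found in GENCODE vM21 transcripts (GRCm38) of 45 of the 64 replication-dependent genes and in 64 of 21877 protein-coding genes (0.293%). Of the replacement genes, *H2afx* alone held a match. The 28-base windows below, 5′ to 3′, show 7 bases before the stem-loop, the stem-loop in capitals and 5 bases after it.
*Hist1h1c* (H1, chr13:23739505-23739532, + strand): tccaaaaGGCTCTTTTCAGAGCCaccac
*Hist2h2aa1* (H2A, chr3:96246025-96246052, + strand): ctaaaaaGGCTCTTTTCAGAGCCaccca
*Hist3h2a* (H2A, chr11:58955165-58955192, + strand): caccaaaGGCTCTTTTCAGAGCCaccca
*Hist1h3d* (H3, chr13:23576237-23576264, + strand): ccccaaaGGCTCTTTTCAGAGCCacccc
*H2afx* (H2A.X, chr9:44335233-44335260, + strand): ccacaaaGGCCCTTTTAAGGGCCaccac
The same 16 bases as in the first 4 of these were found in 26 genes. The form with the stem of *H2afx* and another loop base, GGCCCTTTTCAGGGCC, was found in 7 genes, and those were H4 genes. No match was found in *Hist1h2bc* or *Hist2h2be*.

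Where the annotated mRNA ends after the stem-loop differed widely between genes. In 22 of the 45 replication-dependent genes with a match, a GENCODE transcript ran on for at least 100 bases past the stem-loop, for 840 bases in *Hist1h1c*, 1643 bases in *Hist3h2a* and 752 bases in *Hist1h3d*. *H2afx* had 822 bases after it. In *Hist2h2aa1* 35 bases followed, and in *Hist1h2ap* only 3 bases followed. The 22 genes with a long end held 41.3% of all replication-dependent counts, the 23 genes with a short end 26.7% and the 19 genes without a match 32.0%. A match can be found only where the annotated transcript reaches the stem-loop, so a gene without a match may still have one. Across the 45 genes, the length after the stem-loop and the total count had a Spearman's rho of 0.169, a description across genes of the same 8 libraries. How the RNA was selected for sequencing is not given in the sources used here, so the part of mRNAs without a poly(A) tail that the libraries kept is not known.

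The libraries held 17420284 to 19427359 counts each. *Nap1l2* itself had 3 and 3 counts in NC, 2 and 7 in KD-Nap1l2, 15 and 5 in NC-7d and 7 and 13 in KD-Nap1l2-7d. It was therefore too rare for the knockdown to be seen at this depth (log2 fold change 0.64 ± 0.98 (SE) for KD-Nap1l2 against NC, edgeR's quasi-likelihood test, Benjamini-Hochberg adjusted p = 0.812), and the groups are used as labelled. The mesenchymal markers summed to 11370 to 27420 CPM per library (counts scaled to a common library size with edgeR's TMM factors). The largest of these sums were those of day 0. Of the 10 tested mesenchymal markers, 2 were called lower after induction in control cells and 4 with the shRNA (3.38% and 7.36% of all genes). One of the 11 markers, *Nt5e*, had only 0 to 3 counts. The 3 blood and macrophage markers in the table summed to 3.81 to 11.6 CPM, of which *Cd68* gave 56 to 196 counts and *Ptprc* 0 to 4. The 3 epithelial markers summed to 1.68 to 8.47 CPM. Among them *Epcam* had 0 or 1 counts, and *Cdh1*, with 27 to 149.69 counts, was called lower after induction with both constructs. The 3 endothelial markers summed to 0.21 to 2.43 CPM. The part of these markers in the histone values was not tested. One library stood apart in histone RNA. In NC replicate 1, histone genes took 0.416% of all counts, against 0.228% to 0.332% in the other libraries, so values that rest on it are also given without it.

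Most histone counts in these libraries came from the replacement genes. They held 88.9% of the estimated histone counts summed over the 8 libraries, and the 64 replication-dependent genes 11.1%. Counts also grow with transcript length, so these are not shares of RNA molecules. Levels between genes are compared per length, in FPKM averaged over the 8 libraries (a unit inferred from the values, since the table names it only as expression). *H3f3b* stood first with 606.8 FPKM and *H3f3a* second with 417.6 FPKM. The linker gene *H1f0*, known from resting and differentiated cells, followed with 169.5 FPKM and *H2afz* with 128.3 FPKM. *Hist1h2bc* (101 FPKM) and *Hist1h1c* (98.1 FPKM) were the highest replication-dependent genes, ahead of *Hist2h2aa1* (78.7 FPKM), *H2afx* (61.4 FPKM) and *Hist1h2ap* (50.1 FPKM). The lowest of the tested replacement genes, *H2afy2* with 21.3 FPKM and *H1fx* with 21.4 FPKM, did not differ beyond their spread between libraries. The 5 genes known from testis or oocyte stayed at or below 2.41 FPKM, the level of *Hist1h2ba*.

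**Figure D1:**
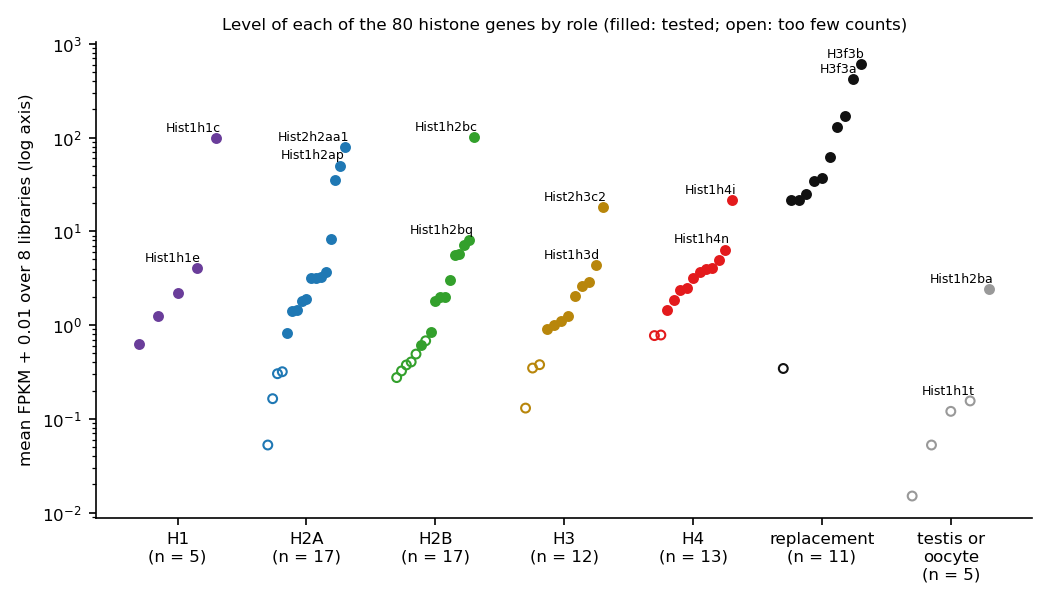
Mean FPKM over the 8 libraries plus 0.01 (log axis) for each of the 80 histone genes, grouped by role; filled points passed the filter on low counts and open points did not. *H3f3b* and *H3f3a* lead with 606.8 and 417.6 FPKM, and *Hist1h2bc* (101 FPKM) and *Hist1h1c* (98.1 FPKM) lie far above the rest of the H2B and H1 genes.

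The replication-dependent RNA was concentrated in a few genes. *Hist1h2bc* alone carried 22.5% of the replication-dependent counts, *Hist1h2bc* and *Hist1h1c* together 44.3%, and the 12 genes with the most counts 85.4%. The lower part of the class was close to the limit of detection, since 3 counts, taken as the most that a count of 0 leaves possible, correspond to 0.154 to 0.176 CPM per library (counting error only). Many of these genes also share sequence. A median of 78.9% of the 50-base windows in the annotated transcripts of an H2A gene recurred in another histone gene, against 57.2% for H3, 44.1% for H2B, 39.5% for H4, 2.21% for H1 and 0% for the replacement genes. The pair *Hist1h2ao* and *Hist1h2ap* shared 93.1% of the windows of *Hist1h2ap*, and *Hist2h2aa2* shared all of its windows with *Hist2h2aa1*. Of the 64 replication-dependent genes, 61 had a count that was not whole in some library, against 41.1% of all genes. This was also so for *Hist2h2be* (7 libraries), which shares 0 windows with another histone gene. How reads were divided between copies is uncertain.

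The division between copies could be seen in single libraries. *Hist1h2bq*, which shares 97.3% of its windows with *Hist1h2br*, had 0 CPM in KD-Nap1l2-7d replicate 1 and 10.5 CPM in replicate 2. *Hist1h2br* had 11.9 and 1.09 CPM in the same libraries. Their sum was nearly equal in both, at 11.9 and 11.6 CPM, and was 5.1 and 8.04 CPM in NC-7d, 16.7 and 21.3 CPM in KD-Nap1l2 and 22.9 and 12 CPM in NC. The sum was thus lower in both day 7 groups than in the day 0 group with the same construct, without overlap, while the split between the copies differed from library to library. The sum of *Hist1h2ao* and *Hist1h2ap* behaved alike, with 40.1 and 32.9 CPM in NC, 10.4 and 24.9 CPM in NC-7d, 32.9 and 33.8 CPM in KD-Nap1l2 and 15.5 and 13.4 CPM in KD-Nap1l2-7d. Not all sums of copies did so. That of *Hist2h3b*, *Hist2h3c1* and *Hist2h3c2* was narrowly lower on day 7 in both constructs without overlap. The sum of *Hist2h2aa1* and *Hist2h2aa2* was lower in control cells without overlap. With the shRNA it overlapped (36.6 and 46 CPM before, 31.5 and 46.8 CPM after induction). For *Hist1h4m* and *Hist1h4n* the days overlapped in both constructs, with higher means on day 7. All these sums were formed after the counts had been seen and were not tested.

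The first comparison asked which histone genes differ between day 7 of osteogenic induction and day 0 in control cells (NC-7d against NC). No group was kept to day 7 without induction. Here and below, the effect of induction therefore cannot be told apart from that of time in culture. Of the 60 tested histone genes, 3 were called and all 3 fell: *H2afy2*, *Hist2h2be* and *Hist3h2a*. Over all 13470 tested genes, 8.21% were called and 3.38% were called lower. The share of histone genes called lower was 5%. An unadjusted p under 0.05 was given for 18 of the 60, against 24.5% of all genes. Most others had lower values on day 7 as well, with 10 of the 60 log2 fold changes above 0 (49.6% of all genes) and a median of −0.58 against 0 for all genes. In 26 of the 60, both NC-7d libraries lay below both NC libraries, against 28.4% of all genes.

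*H2afy2*, one of the macroH2A genes, had the smallest p-value. It was at 63.8 and 63 CPM in NC and at 30.6 and 31.3 CPM in NC-7d. The replicates differed by less than 1 CPM in each group, and the level fell 2.05-fold (log2 fold change −1.03 ± 0.12 (SE), adjusted p = 0.00356). *H2afy*, the other macroH2A gene, did not pass the test. Its level was 89.5 and 92.9 CPM in NC and 92.3 and 94.5 CPM in NC-7d (log2 fold change 0.03 ± 0.12, adjusted p = 0.89).

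The other called genes belong to the replication-dependent class. *Hist2h2be*, an H2B gene, was at 9.71 and 7.02 CPM in NC and at 2.81 and 3.78 CPM in NC-7d, 2.53-fold lower without overlap (adjusted p = 0.0266). *Hist3h2a*, an H2A gene, was at 30.9 and 19.6 CPM in NC and at 12.5 and 11.7 CPM in NC-7d, 2.09-fold lower without overlap (adjusted p = 0.0265). Both calls were lost without NC replicate 1, the library that stood apart, without NC-7d replicate 1 and without either KD-Nap1l2-7d library, which enters the estimate of the spread. *Hist3h2a* was also lost without NC-7d replicate 2. Without NC replicate 1, *H2afy2* was the 1 histone gene still called, while 0.876% of all genes were. *Hist3h2a* kept a log2 fold change of −0.7 and *Hist2h2be* of −1.08.

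None of the other replacement genes passed the test, and their values differed between genes. *H2afv* was at 53.8 and 45.1 CPM in NC and at 26.9 and 36.1 CPM in NC-7d (log2 fold change −0.65 ± 0.17, adjusted p = 0.0601). *H1fx* was at 26.2 and 24 CPM in NC and at 18.1 and 18 CPM in NC-7d (adjusted p = 0.115). These groups did not overlap. *H3f3b* was at 2065 and 1083 CPM in NC and at 1138 and 797.7 CPM in NC-7d, which overlapped because of NC replicate 2. *H2afx*, with 92.3 and 87.5 CPM in NC and 58.2 and 91.6 CPM in NC-7d, overlapped because of NC-7d replicate 2.

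None of the H1 genes passed the test. *Hist1h1c*, the highest of the replication-dependent H1 genes here, had 124.5 CPM in NC replicate 1, 38.6 CPM in NC replicate 2 and 39.5 CPM in both NC-7d libraries. Its log2 fold change was −1.05 with all libraries (adjusted p = 0.218) and 0.03 without NC replicate 1, so its lower mean rested on that library. *Hist1h1a*, *Hist1h1b* and *Hist1h1d*, all below 4 CPM, had log2 fold changes of −2.13, −1.61 and −1.98 without overlap between the groups, with adjusted p-values of 0.0905 to 0.176. Their counts were low, at 14 and 10 in NC against 4 and 1 in NC-7d for *Hist1h1a* and 37 and 15 against 11 and 5 for *Hist1h1b*. Leaving out 1 library at a time gave −3.43 to −1.4 for *Hist1h1a*, −2.36 to −0.769 for *Hist1h1b* and −2.84 to −1.13 for *Hist1h1d*. *Hist1h1e* overlapped between the groups.

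The second comparison asked the same of the cells with the shRNA (KD-Nap1l2-7d against KD-Nap1l2). Here 8 of the 60 tested histone genes were called and all 8 fell. Of all genes, 14.2% were called and 7.36% were called lower, against 13.3% of the histone genes called lower. An unadjusted p under 0.05 was given for 17 of the 60, against 31.4% of all genes. By class, 6 of the 10 replacement genes were called (*H2afy2*, *H2afx*, *H1fx*, *H2afv*, *H2afz* and *H3f3a*) and 2 of the 49 replication-dependent genes (*Hist2h2be* and *Hist1h3d*). The median log2 fold change of the 10 replacement genes was −0.76, and that of all genes −0.01. That of the 49 replication-dependent genes was −0.39, with 34 of them below 0. The classes also differed in spread. The log2 ratio between the KD-Nap1l2-7d replicates had an SD of 1.64 in the replication-dependent genes and 0.177 in the replacement genes. The counts of calls in the 2 classes are therefore not on an equal footing. Of the 60 histone genes, 17 were above 0 (49.3% of all genes). In 30 of the 60, both day 7 libraries lay below both day 0 libraries, against 30.6% of all genes.

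*H2afy2* again had the smallest p-value of the histone genes. It was at 55.9 and 49.9 CPM in KD-Nap1l2 and at 19.9 and 21.9 CPM in KD-Nap1l2-7d, and fell 2.53-fold (log2 fold change −1.34 ± 0.12 (SE), adjusted p = 0.000986). *H2afx* was at 117.2 and 115.2 CPM before and at 45.4 and 54.4 CPM after induction, 2.33-fold lower (log2 fold change −1.22 ± 0.21, adjusted p = 0.0105). The spread within each of these groups was small beside the gap between them. *H1fx*, a replication-independent linker histone gene, was at 28.2 and 34.6 CPM before and at 13.6 and 16.3 CPM after induction, 2.1-fold lower (adjusted p = 0.00681).

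Both H2A.Z genes were called. *H2afv* was at 53.2 and 57.1 CPM before and at 25.5 and 29.1 CPM after induction, 2.02-fold lower (log2 fold change −1.01 ± 0.17, adjusted p = 0.0106). *H2afz* was at 192.9 and 145.3 CPM before and at 89.1 and 98.8 CPM after induction, 1.8-fold lower (log2 fold change −0.85 ± 0.21, adjusted p = 0.0368). The *H2afz* call was lost with limma on log2(FPKM + 1) (adjusted p = 0.0603), with the replicate block, and when NC replicate 1, NC replicate 2, KD-Nap1l2 replicate 1 or either KD-Nap1l2-7d library was left out (adjusted p up to 0.212). The 2 *H2afz* libraries of day 0 differed from each other by about as much as the lower one differed from day 7. The deposited counts of *H2afz* were not whole in all 8 libraries, so part of its reads was shared with other entries of the table.

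Of the 2 replacement H3 genes, 1 passed the test. *H3f3a* was at 541.1 and 492.1 CPM before and at 291.1 and 360.9 CPM after induction, 1.58-fold lower (adjusted p = 0.0403). This call was lost in a fit of only the libraries compared (adjusted p = 0.0592), with the replicate block, and without any 1 of the 4 libraries compared (adjusted p up to 0.248). *H3f3b*, the higher of them, was at 1129 and 1440 CPM before and at 1032 and 1013 CPM after induction, and its log2 fold change of −0.33 ± 0.31 did not pass (adjusted p = 0.502). *H1f0* was at 401.4 and 572.8 CPM before and at 325.7 and 302.9 CPM after induction (adjusted p = 0.184). The days did not overlap for *H1f0* or *H3f3b*, but the day 0 libraries of both lay far apart.

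Not every replacement gene was lower on day 7. *H2afj*, an H2A gene outside the clusters, was at 63.5 and 60.5 CPM before and at 62.2 and 80.3 CPM after induction (adjusted p = 0.399). *H2afy* was at 82.5 and 91.9 CPM before and at 96.1 and 86.6 CPM after induction (adjusted p = 0.737). Both overlapped between days, also in the control cells for *H2afy*. The plot of replacement genes by library shows *H2afy* level throughout and *H2afy2* separated by day in both constructs.

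**Figure D2:**
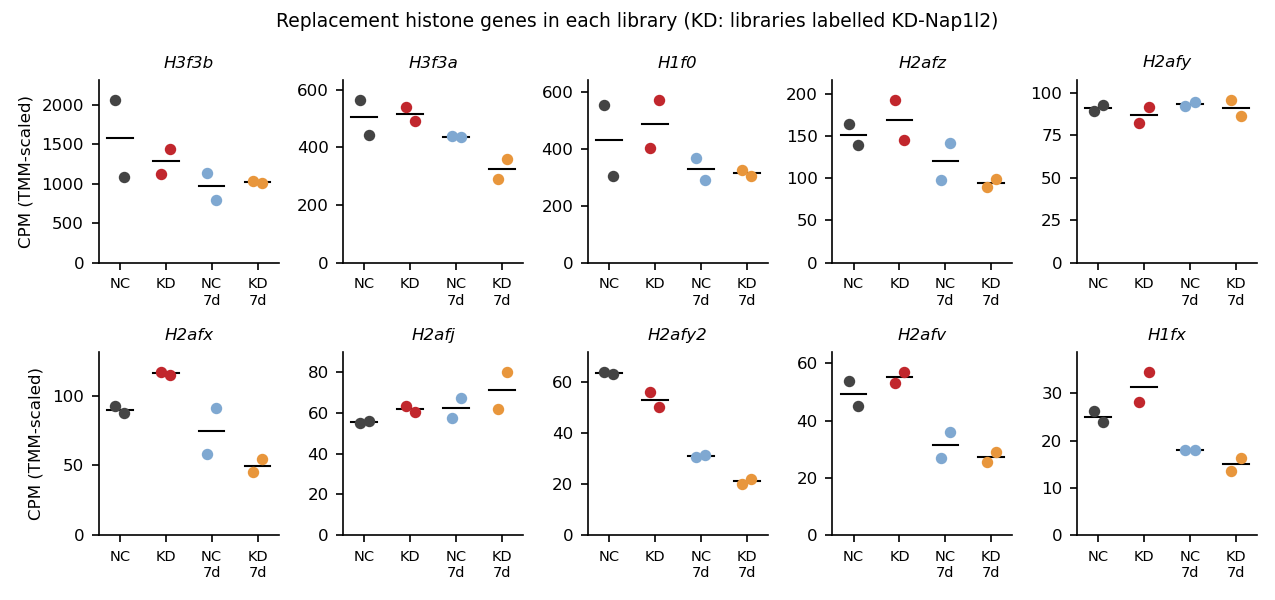
TMM-scaled CPM of the 10 tested replacement histone genes in each library, 1 panel per gene with its own axis from 0; points are libraries (2 per group) and lines are group means. *H2afy2* falls from 63.4 to 31 CPM on average in control cells and from 52.9 to 20.9 CPM with the shRNA, while *H2afy* stays between 82.5 and 96.1 CPM in the 8 libraries.

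Of the replication-dependent genes, *Hist2h2be* was called in both induction comparisons. With the shRNA it was at 6.92 and 5.87 CPM before and at 2.58 and 3.15 CPM after induction, 2.23-fold lower (adjusted p = 0.0324). *Hist1h3d*, an H3 gene named because it was called although its mean lies below the minimum set for naming genes, was at 2.95 and 3.54 CPM before and at 1.21 and 1.2 CPM after induction, 2.68-fold lower (adjusted p = 0.0247). It had 19.97 to 61.5 estimated counts per library. *Hist1h2bc* was at 81.7 and 97.5 CPM before and at 78.6 and 72.6 CPM after induction (adjusted p = 0.438). *Hist2h2aa1* overlapped between days, at 34.4 and 42.1 CPM before and 29.2 and 42.8 CPM after induction.

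The number of calls rested on the libraries of KD-Nap1l2-7d. Without KD-Nap1l2-7d replicate 1, *H2afy2* was the 1 histone gene called and 2.3% of all genes were. Without replicate 2 of that group 4 histone genes and 2.49% of all genes were called. Without KD-Nap1l2 replicate 1 the call was made for 5 histone genes and 16.5% of all genes. Leaving out KD-Nap1l2-7d replicate 1 or 2 ended the calls of *H2afx* (adjusted p = 0.102 and 0.0615), *H2afv* (0.101 and 0.064) and *Hist1h3d* (0.155 and 0.143), and leaving out replicate 1 ended that of *H1fx* (0.0759). *Hist1h3d* was also lost without KD-Nap1l2 replicate 2 (0.0807), and *Hist2h2be* without any 1 of the 4 libraries compared (up to 0.207). The direction of these log2 fold changes was the same in each of the fits. DESeq2 called 12 histone genes in this comparison (17.7% of all genes) and 7 in the control cells (11.5% of all genes). For *H2afy2*, the adjusted p-value ranged up to 0.046 in control cells and up to 0.0182 with the shRNA over the 16 alternative analyses, so the call held in each of them.

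**Figure D3:**
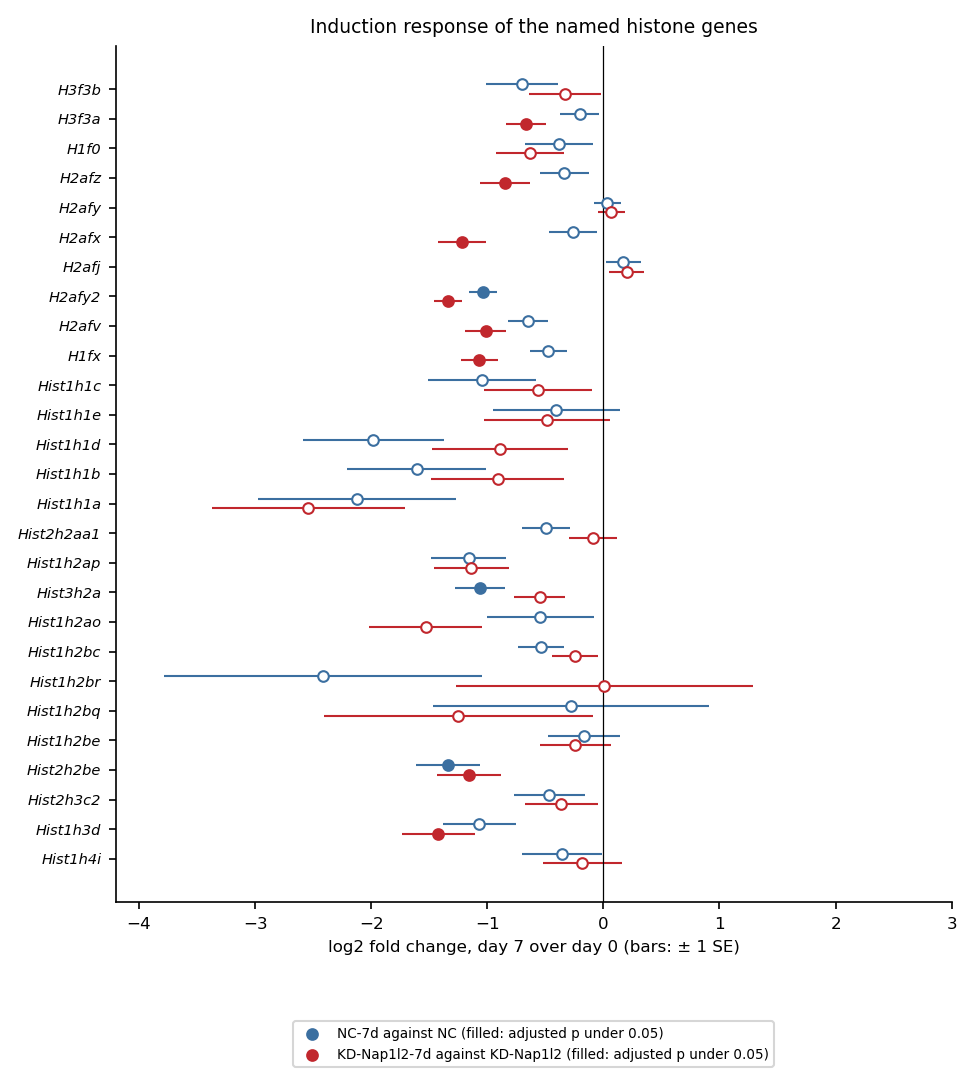
Log2 fold change of day 7 over day 0 with 1 standard error for 27 named histone genes in control cells (blue) and in cells with the shRNA (red); filled points have an adjusted p under 0.05. Filled points lie left of 0 in both comparisons, and *H2afy2* and *Hist2h2be* are filled in both.

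The sum of each class gives a second view that depends less on how reads were split between copies, although some genes also share windows with another class (23.8% of those of *Hist1h1e* with *Hist1h2be*). Summed H1 was 135.2 and 43.9 CPM in NC, 45.1 and 41.4 CPM in NC-7d, 79.6 and 121.1 CPM in KD-Nap1l2 and 67.9 and 66.5 CPM in KD-Nap1l2-7d. It overlapped between days in control cells because of NC replicate 2, and did not overlap with the shRNA. Summed H2A was 140 and 111.4 CPM in NC, 71.4 and 75.8 CPM in NC-7d, 101.2 and 107.1 CPM in KD-Nap1l2 and 65.5 and 81.3 CPM in KD-Nap1l2-7d. Summed H2B was 140.7 and 87.4 CPM in NC, 70.1 and 69.6 CPM in NC-7d, 126.6 and 140.2 CPM in KD-Nap1l2 and 105.5 and 102.3 CPM in KD-Nap1l2-7d. Summed H3 was 28.4 and 20.6 CPM in NC, 14.4 and 15.7 CPM in NC-7d, 24.8 and 19.6 CPM in KD-Nap1l2 and 14.3 and 16.9 CPM in KD-Nap1l2-7d. H2A, H2B and H3 were thus lower on day 7 in both constructs, without overlap. In each group *Hist1h1c* made up most of the H1 sum and *Hist1h2bc* most of the H2B sum.

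H4 did not share this pattern. Its sum was 22.9 and 16.5 CPM in NC, 21.7 and 13.2 CPM in NC-7d, 25.7 and 19.1 CPM in KD-Nap1l2 and 18.6 and 32.4 CPM in KD-Nap1l2-7d, and the days overlapped in both constructs. With the shRNA, 8 of the 11 tested H4 genes had a log2 fold change above 0 (49.3% of all genes), with a median of 0.4. The higher day 7 values lay largely in KD-Nap1l2-7d replicate 2. The H4 sum of replicate 1 was below both day 0 libraries, and *Hist1h4n* had 0 CPM in replicate 1 and 5.67 CPM in replicate 2. None of the H4 genes was called (14.2% of all genes were). *Hist1h4d*, at 0.965 and 0.855 CPM before and 1.81 and 2.92 CPM after induction, was the 1 with an unadjusted p under 0.05 (31.4% of all genes). Its log2 fold change was 1.37 (adjusted p = 0.0838). With 2 libraries against 2, an exact permutation test of a single sum cannot give a two-sided p below 0.333, so the sums are given without a test. In bulk RNA, fewer cells in S phase and less histone RNA per cell cannot be told apart.

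A list of 20 S phase genes summed to 1045 and 1484 CPM in NC, 886.6 and 1568 CPM in NC-7d, 1563 and 1292 CPM in KD-Nap1l2 and 1003 and 1124 CPM in KD-Nap1l2-7d. NC-7d replicate 2 had the highest sum of all libraries, although its H2A, H2B and H3 sums were among the lowest 4. NC replicate 1 had the highest H1, H2A, H2B and H3 sums and the lowest S phase sum of the day 0 libraries. Of the 20 genes, edgeR called 0 in either induction comparison (8.21% and 14.2% of all genes). Unadjusted p-values under 0.05 were given for 0 genes in control cells and 4 with the shRNA (24.5% and 31.4% of all genes). With the shRNA, DESeq2 called 1 and limma 0 (17.7% and 12.1% of all genes). By sign, 15 of the 20 had a log2 fold change below 0 in control cells and 20 of 20 with the shRNA, with medians of −0.19 and −0.46. Of all genes, 49.6% and 49.3% were above 0. The part of S phase in the histone values was not tested.

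**Figure D4:**
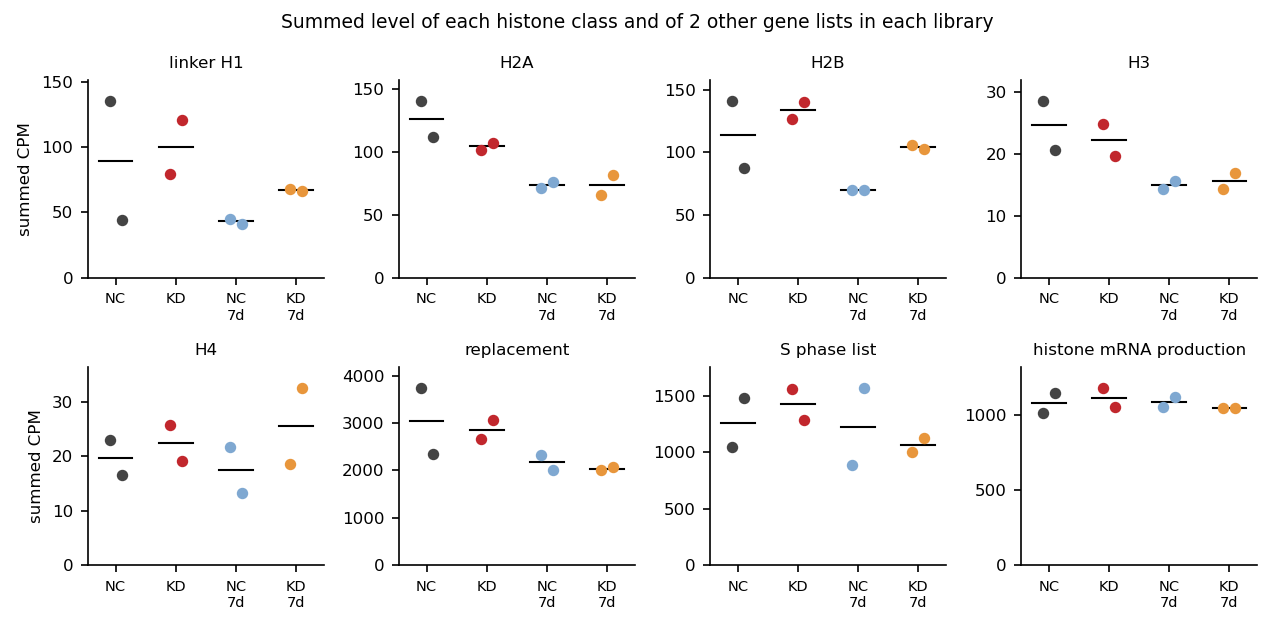
Summed TMM-scaled CPM per library of the 5 replication-dependent classes, the replacement genes, 20 S phase genes and 24 genes of histone mRNA production; axes start at 0, points are libraries and lines group means. H2A, H2B and H3 lie lower on day 7 in both constructs, H4 overlaps between days, and NC replicate 1 reaches 135.2 CPM for H1 against 43.9 CPM in NC replicate 2.

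Genes for making and processing histone mRNA were taken as a further list. Of 24 tested genes of this list, edgeR called 0 in control cells (1 with an unadjusted p under 0.05, DESeq2 and limma 0) and 1 with the shRNA, *Slbp* (DESeq2 called 2 genes and limma 0). Over all genes, edgeR called 8.21% in control cells and 14.2% with the shRNA, DESeq2 11.5% and 17.7%, and limma 7.56% and 12.1%. An unadjusted p under 0.05 was given for 24.5% of all genes in control cells. *Slbp*, which binds the stem-loop shown above, was at 60.2 and 56 CPM before and at 38 and 40.2 CPM after induction, 1.49-fold lower (adjusted p = 0.0314). This call was lost with limma and without any 1 library other than those of NC-7d (adjusted p up to 0.191). In control cells it was at 50.1 and 53.1 CPM before and at 35.5 and 44.2 CPM after induction, without overlap (log2 fold change −0.37, adjusted p = 0.144). *Npat*, the coactivator of histone gene transcription in S phase, was at 45.5 to 52.5 CPM in the 8 libraries. *Casp8ap2* (35.1 to 48.6 CPM) and *Hinfp*, a transcription factor of H4 genes (13.4 to 17.5 CPM), did not pass the test in either comparison.

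Cyclin E genes drive entry into S phase. *Ccne2* was at 36.8 and 39.5 CPM before and at 18.8 and 16.8 CPM after induction with the shRNA (adjusted p = 0.113). It was called there by DESeq2 (0.0276), in a fit of only the libraries compared (0.00948) and without either NC-7d library (0.00849 and 0.00844). In control cells *Ccne2* was at 27.3 and 37.3 CPM before and 11.3 and 32.5 CPM after induction. *Ccne1* had log2 fold changes of −0.3 with the shRNA and 0 in control cells. Of 13 tested histone chaperones, 2 were called with the shRNA, both lower, a share near the 14.2% of all genes. DESeq2 called 2 and limma 1 (17.7% and 12.1% of all genes). They were *Anp32e*, which removes H2A.Z from nucleosomes (1.62-fold lower), and *Hjurp*, the chaperone of the centromeric H3 (1.86-fold lower). In control cells edgeR, DESeq2 and limma called 0 chaperones (8.21%, 11.5% and 7.56% of all genes), and 2 had an unadjusted p under 0.05 (24.5% of all genes).

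Another pair of comparisons asked whether the shRNA changes histone RNA on day 0 and on day 7. They use the same libraries as the induction comparisons, so their values are not independent of those above. On day 0 (KD-Nap1l2 against NC), edgeR called 0 of the 60 tested histone genes, where 0.0817% of all genes were called. DESeq2 and limma also called 0 (3.43% and 0.245% of all genes), and 4 histone genes had an unadjusted p under 0.05 (13.7% of all genes). The best measured of these were *Hist3h2a* (17.5 and 17.9 against 30.9 and 19.6 CPM, log2 fold change −0.51 ± 0.21, adjusted p = 0.349) and *Hist2h2aa1* (34.4 and 42.1 against 56.7 and 51.7 CPM, log2 fold change −0.5 ± 0.21, adjusted p = 0.341). In both, the 2 libraries with the shRNA lay below the 2 NC libraries. Without NC replicate 1 the log2 fold change of *Hist3h2a* was −0.145.

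*H2afy2* came next by unadjusted p (0.0579). Its CPM on day 0 was 55.9 and 49.9 with the shRNA against 63.8 and 63 in NC (log2 fold change −0.26 ± 0.12, adjusted p = 0.38). The median log2 fold change of the 49 replication-dependent genes was 0.18, and that of all genes 0.01. Leaving out NC replicate 1 gave 0.58, leaving out NC replicate 2 gave −0.00099, and −0.08 was found when KD-Nap1l2 replicate 1 was left out, so neither its size nor its sign held. *Hist1h2ag* had 0 counts in both NC libraries and 39.6 estimated counts over both KD-Nap1l2 libraries. That is at least 13.9-fold higher if NC held up to 3 counts over the group. *Hist1h2ag* passed the filter on low counts through these KD-Nap1l2 libraries and shares 71.8% of its windows with *Hist1h2ap*. In the other direction, *Hist2h3c1* had 0 counts in both KD-Nap1l2 libraries and 41.8 in NC, all in replicate 2, at least 13.3-fold lower. Both bounds cover counting error only and not the division of reads between copies.

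On day 7 (KD-Nap1l2-7d against NC-7d), edgeR called 0 of 60 histone genes, and 0% of all genes were called. DESeq2 and limma called 0 histone genes (0.609% and 0% of all genes), and 8 had an unadjusted p under 0.05 (7.85% of all genes). The smallest of these p-values was that of *H2afy2*, at 19.9 and 21.9 CPM with the shRNA against 30.6 and 31.3 CPM in NC-7d (log2 fold change −0.57 ± 0.12, unadjusted p = 0.00165, adjusted p = 0.443). *H2afx* was at 45.4 and 54.4 against 58.2 and 91.6 CPM (log2 fold change −0.59 ± 0.21, adjusted p = 0.552). *Hist1h2bc* had the opposite sign, at 78.6 and 72.6 against 48.6 and 48.7 CPM (log2 fold change 0.64 ± 0.2, adjusted p = 0.519). None of these groups overlapped.

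By sign, the classes stood on different sides in this comparison, in which 0 histone genes were called. Of the 49 tested replication-dependent genes, 37 had a log2 fold change above 0 (75.5%, against 49.1% of all genes), and their median was 0.45. Of the 10 replacement genes, 2 were above 0 and the median was −0.24. In 17 of the 49 replication-dependent genes both shRNA libraries lay above both controls (21% of all genes did), and in 4 of the 10 replacement genes they lay below (21% of all genes did). The 17 include genes near the limit of detection and copies that share reads, so they are not separate observations. *Hist2h3b* had 0 CPM in both NC-7d libraries and 0.604 and 0.629 CPM with the shRNA. *Hist2h2aa2* is also among them, but its sum with *Hist2h2aa1* overlapped (31.5 and 46.8 against 42.5 and 34.9 CPM). Summed H1 and H2B were higher with the shRNA on day 7 without overlap, by 1.55-fold and 1.49-fold. Most of each difference lay in a single gene. Mean *Hist1h1c* was 62.6 against 39.5 CPM, within H1 sums of 67.2 against 43.3 CPM. Mean *Hist1h2bc* was 75.6 against 48.6 CPM, within H2B sums of 103.9 against 69.9 CPM. Summed H2A was equal within the spread (73.4 against 73.6 CPM). When only the genes with at least 10 counts in every library were kept, the median of the replication-dependent genes was 0.1, so most of its size came from genes of low count.

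**Figure D5:**
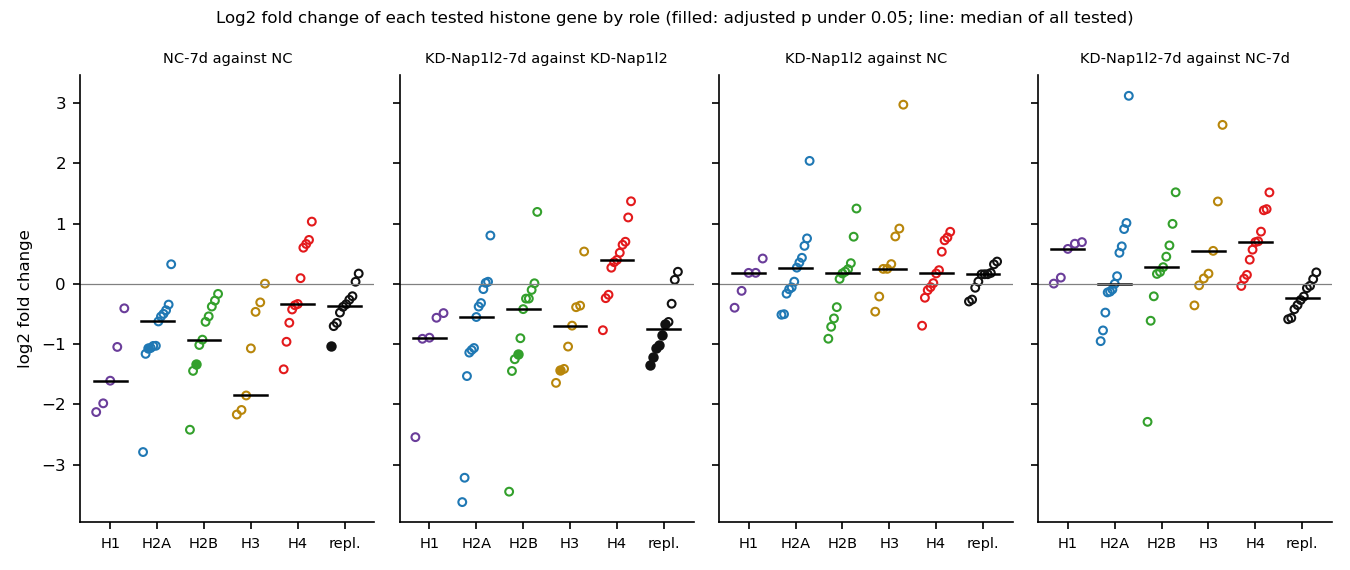
Log2 fold change of the tested histone genes by role in 4 comparisons; filled points have an adjusted p under 0.05, lines are medians of all tested genes of a role, and genes with 0 counts in a whole group are left out of the points. Both panels of day 7 over day 0 have most points below 0 apart from H4 with the shRNA, and the panel of KD-Nap1l2-7d against NC-7d has the H1 and H4 medians at 0.58 and 0.69 above a replacement median of −0.24.

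A last test asked whether the response to induction differed between the constructs. The difference between the 2 responses was called by edgeR for 0 of the 60 histone genes and for 0% of all genes. DESeq2 and limma called 0 histone genes (0.72% and 0% of all genes), and 6 had an unadjusted p under 0.05 (7.04% of all genes). *H2afx* had the smallest p-value of them, with a log2 fold change of −1.22 with the shRNA and −0.26 in control cells (difference −0.96 ± 0.29 (SE), unadjusted p = 0.0112, adjusted p = 0.582). *H1fx* (difference −0.59 ± 0.23) and *H3f3a* (difference −0.46 ± 0.24) had adjusted p-values of 0.68 and 0.738. For *H2afy2* the difference was −0.3 ± 0.17 (adjusted p = 0.751). The larger number of calls with the shRNA is therefore not shown to be a difference between the constructs.

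The deposited transcript table splits some replacement genes further. *H2afy* had 10 transcripts, of which NM_001159515.1 carried 27.3% of the gene's counts. The share of that transcript was 20.5% in NC, 26.9% in NC-7d, 34.8% in KD-Nap1l2 and 27.5% in KD-Nap1l2-7d. The KD-Nap1l2 share differed between replicates, with 403.04 of 1538 counts in replicate 1 and 692.32 of 1612 in replicate 2. *H2afy2* had 2 transcripts, and the main one (NM_207000.2) held 74.2% to 77.3% of the counts in each group, so its fall was shared by both. The main transcripts of *H2afz*, *H2afv* and *H3f3b* carried 91.8%, 95.7% and 95.4%. In *Hist1h2be*, an H2B gene of 3 transcripts, the split also differed between replicates. NM_178194.4 held 140.44 and 111.36 estimated counts in NC, 0 and 43.69 in NC-7d, 110.54 and 61.63 in KD-Nap1l2 and 87.42 and 0 in KD-Nap1l2-7d, while the gene as a whole had 96.41 to 177.28 in each library. These shares are estimates from reads divided between overlapping transcripts and were not tested.

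Promoters were compared because genes of each class are known to share elements there. RefSeq promoters (GRCm38.p6) were found for 74 of the 80 genes, and the 250 bases before the start were searched on both strands for CCAAT, for TATAAA and for E2F-type sites (TTCCCGC or TTCGCGC or TTGCCGC or TTGGCGC). The CCAAT motif was found in 48 of 59 replication-dependent genes (81.4%), in 5 of 10 replacement genes and in 37.5% of all 27025 promoters. It occurred at least 2 times in 69.5% of the replication-dependent promoters and in 11.5% of all. Within the class, CCAAT was in all promoters of H1, H2A and H2B and in 3 of 12 of H4. These promoters are not all separate sequences. Some neighbouring H2A and H2B genes on opposite strands, such as *Hist1h2ad* and *Hist1h2bf*, share the searched DNA, so the same sites count for both. The 150 bases before the start are identical in *Hist1h2bq* and *Hist1h2br*. TATAAA was in 45.8% of the replication-dependent and 14.3% of all promoters, and the E2F-type sites in 23.7% and 9.01%.
The 150 bases before the start are printed, with matches in capitals (CCAAT reads ATTGG and TATAAA reads TTTATA on the other strand), for 4 genes called after induction.
*Hist3h2a* (chr11:58954535-58954684, + strand): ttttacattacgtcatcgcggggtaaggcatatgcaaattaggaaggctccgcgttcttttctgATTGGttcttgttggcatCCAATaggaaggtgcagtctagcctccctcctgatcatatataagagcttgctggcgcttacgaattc
*Hist1h3d* (chr13:23575613-23575762, + strand): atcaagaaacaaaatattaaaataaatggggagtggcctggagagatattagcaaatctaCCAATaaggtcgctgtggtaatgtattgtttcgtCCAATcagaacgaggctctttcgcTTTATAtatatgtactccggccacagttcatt
*H2afz* (chr3:137864337-137864486, + strand): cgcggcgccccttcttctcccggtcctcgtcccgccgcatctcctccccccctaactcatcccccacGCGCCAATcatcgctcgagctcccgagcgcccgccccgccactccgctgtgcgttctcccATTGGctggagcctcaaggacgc
*H3f3a* (chr1:180813606-180813755, - strand): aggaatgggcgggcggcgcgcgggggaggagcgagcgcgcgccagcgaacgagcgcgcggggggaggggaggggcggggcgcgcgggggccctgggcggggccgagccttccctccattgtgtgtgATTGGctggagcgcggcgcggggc
*Hist3h2a*, *Hist1h3d* and *H2afz* each held 2 CCAAT matches in this window and *H3f3a* held 1. The printed genes do not stand for all called genes. *H2afv* also held 2 in its window, but *H2afy2* and *H1fx* held 0 in the 250 bases searched. No promoter was found for *H2afx* or *Hist2h2be*. In *H2afz* the capitals also hold an E2F-type match, which overlaps the first CCAAT. A match is a description of the letters and not evidence of binding.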

How the data were processed

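RNA of 8 C3H10T1/2 libraries, 4 groups of 2 by their labels, was extracted with Trizol and sequenced by the Beijing Genomics Institute. For genes and for transcripts, the deposited tables give an estimated count that was not normalized and an expression value scaled to length and library size. The deposited tables do not name its unit, and it was taken as FPKM, scaled by the authors, from its relation to the counts. The submitters' processing notes name BWA, Bowtie2, RSEM and GRCm38.p6, with no versions or roles. The deposited tables of the authors' own comparisons (log2 fold change, p-value and q-value) were not used.

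Estimated counts, not whole in some library for 41.1% of genes, were rounded and scaled by TMM. filterByExpr kept 13470 of 18605 genes, and 1 edgeR 4.0.16 model (R 4.3.3) took in all 8 libraries. The quasi-likelihood test was Benjamini-Hochberg adjusted over all tested genes, with calls under 0.05. Standard errors (SE) are log2 fold changes over the root of the test's F statistic. Alternatives used DESeq2 1.42.0 and limma 3.58.1 on log2(FPKM + 1). The scripts were tested on simulated data. Libraries held 17420284 to 19427359 counts, and floors of 3 counts cover counting error only.

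The members, gene lists and tests were chosen with earlier results of these data known. Named genes were every tested replacement gene, the 12 replication-dependent genes with the highest mean count, every H1 gene, and per comparison the 3 largest called changes in each direction (or the 3 smallest p-values with none called) at a mean of at least 50 normalized counts. From the other lists, *Slbp*, *Npat*, *Casp8ap2*, *Hinfp*, *Ccne1*, *Ccne2*, called genes and *Nap1l2* were named. *Hist1h3d*, *Hist1h4d*, *Hist1h2ag*, *Anp32e*, *Hjurp* and the genes shown for their sequence, position, copies or low level fall outside this rule. Sequences came from GENCODE vM21 and RefSeq (GRCm38.p6), read with Python 3.11.15, and figures used matplotlib 3.10.9.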

Additional observations from a re-analysis of the deposited data

How the results depend on the processing

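The number of histone genes called in NC-7d against NC was 3, and it was 7 with DESeq2 (11.5% of all genes), 5 without the filter on low counts (6.96%), 1 in a fit of only the libraries compared (5.48%), and 5 with limma on log2(FPKM + 1) or log2(FPKM + 0.1) (7.56% and 7.86%). Leaving out 1 library at a time gave 1 to 5 calls there (1 without NC replicate 1 or either KD-Nap1l2-7d library, 5 without NC replicate 2 or NC-7d replicate 2). In KD-Nap1l2-7d against KD-Nap1l2 it gave 1 to 12, with 8 in the full fit. A fold change of at least 2 as a further criterion, added after seeing the data, left 3 and 6 calls (4.97% and 7.71% of all genes). The cause of these shifts was not tested.

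The median log2 fold change of the replication-dependent genes when 1 library was left out ran from −0.0778 to 0.577 for KD-Nap1l2 against NC, 0.182 to 0.699 for KD-Nap1l2-7d against NC-7d, −1.05 to −0.429 for NC-7d against NC, −0.764 to −0.329 for KD-Nap1l2-7d against KD-Nap1l2, and −0.142 to 0.563 for the difference between the responses. With at least 10 counts in every library, the second of these was 0.103. Genes with 0 counts in a whole group set to their bound left the first 4 medians at 0.18, 0.45, −0.65 and −0.39.

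Replicate numbers did not pair the libraries (correlation of replicate 1 deviations between groups −0.06 to 0.1). With the replicate number as a block, the calls were 0, 0, 3, 8 and 0 in KD-Nap1l2 against NC, KD-Nap1l2-7d against NC-7d, NC-7d against NC, KD-Nap1l2-7d against KD-Nap1l2 and the difference between the responses (0.0297%, 0%, 7.13%, 13% and 0% of all genes). In the fourth of these, *H2afz* (adjusted p = 0.0554), *H3f3a* (0.0579) and *Hist2h2be* (0.0507) were lost, while *Hist1h2bk* (0.0397) and *Hist1h2ah* (0.0481), both lower, and *Hist2h3c1* (0.0477), higher and with all its counts there in 1 library, were gained.

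Of 74 single-gene results, those that changed sign had adjusted p-values above 0.05 in the full fit. In NC-7d against NC, *Hist1h1c* was called without NC replicate 2 (0.0274), and *Ccne2* (0.015) and *Hist1h2ao* (0.0317) without NC-7d replicate 2. *Hist1h2bq* in NC-7d against NC reached 0.48 and 0.57 with limma on log2(FPKM + 1) and log2(FPKM + 0.1). *Hist1h2br* in KD-Nap1l2-7d against KD-Nap1l2 was −0.00246 with DESeq2, −0.21 with the block, and −0.66 and −1.16 with limma, and *Hinfp* was 0.0449 and 0.0495 with limma.
Leaving out 1 library at a time turned the sign of other log2 fold changes in NC-7d against NC. They ran from −0.751 to 0.119 for *H1f0*, −0.627 to 0.0259 for *H2afx*, −1.66 to 0.033 for *Hist1h1c*, −0.869 to 0.0961 for *Hist2h3c2* and −0.789 to 0.264 for *Hist1h4i*. They ran from −0.642 to 0.217 for *Hist1h2bq*, −0.358 to 0.0523 for *Hist1h2be*, −1.64 to 0.0637 for *Hist1h2ao*, −1.38 to 0.185 for *Hist1h1e*, −0.46 to 0.34 for *Ccne1* and −1.51 to 0.00824 for *Ccne2*. In KD-Nap1l2-7d against KD-Nap1l2 the ranges were −0.00148 to 0.373 for *H2afj*, −0.0094 to 0.148 for *H2afy*, −0.397 to 0.163 for *Hist2h2aa1* and −2.57 to 0.871 for *Hist1h2br*. They were −0.576 to 0.102 for *Hist1h2be*, −0.266 to 0.204 for *Casp8ap2*, −0.299 to 0.0819 for *Hinfp* and −0.588 to 0.0522 for *Ccne1*.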
